A study of Mus musculus with 2 samples.

Results

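Hepatokines are proteins that the liver secretes into the blood and that act on metabolism in other organs. The account covers 8 genes, chosen by name from a list of liver-secreted metabolic hormones: Fgf21, Gdf15, Angptl4, Fetub, Ahsg, Enho, Lect2 and Inhbe. All 8 were found among the 24421 genes listed in the count tables. The RNA came from liver of male C57BL/6 mice put on a high-fat diet when 6 weeks old and kept on it for 12 weeks. The control library is RORα f/f liver, in which the Rora alleles are floxed. The second library has the genotype RORα f/f:Alb-Cre and the label LKO, for liver-specific knockout. There, Cre under the albumin promoter is to act in hepatocytes, so other liver cells keep the gene. Both genotypes carry the floxed alleles and both ate the high-fat diet. Whether a library holds RNA of 1 animal or of a pool is not stated. With 1 library per genotype there is no replicate check and no test, and every ratio compares these 2 libraries.

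Liver hormones report the metabolic state of the organ by different routes. FGF21 and GDF15 are stress and fasting signals made at low levels in the fed, unstressed liver, and their genes respond to nuclear receptors of the fatty acid response and to the ATF4 branch of the stress response. ANGPTL4 and activin E, the product of Inhbe, act on fat storage, the first by inhibiting lipoprotein lipase and the second by signalling to adipocytes. The fetuins (Ahsg and Fetub) are abundant plasma proteins, LECT2 is a chemotactic protein linked to insulin resistance in muscle, and adropin, the product of Enho, is a small peptide linked to fuel choice.

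The control library held 128201591 counts in total and the library labelled LKO held 131843686. Levels are given as CPM, counts relative to library size after TMM scaling, which evens out the bulk of genes. Genes whose CPM averaged 1 or more and whose counts summed to 20 or more are called measured, and 11137 met this. Higher or lower means a ratio of at least 2-fold whose 95% exact interval excluded 1, and these intervals cover counting error only. Scaling by total count in place of TMM adds 0.42 to every log2 ratio, so smaller differences depend on the scaling. Rora itself had 3701 and 3677 counts, or 33.4 and 24.1 CPM, a log2 ratio of −0.47 that becomes −0.05 with total-count scaling. As the gene total includes exons outside any deleted part and was not lost, the second library is called by its label throughout. Markers of hepatocytes were abundant in both libraries, with Alb at 117952 and 91007 CPM.

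The 8 hepatokine genes split into 3 groups in the library labelled LKO. Gdf15, Fgf21, Angptl4 and Inhbe were at least 2-fold higher, Enho was at least 2-fold lower, and Ahsg, Fetub and Lect2 were within 2-fold. Among all measured genes, 3.83% were higher by this rule and 2.62% were lower. All 8 genes had at least 1 CPM in both libraries, so none was measured through 1 library alone. The median log2 ratio of the 8 was 0.47, beside 0.00 for all measured genes. In bulk liver, fewer cells of a type and less RNA per cell cannot be told apart.

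**Figure D1:**
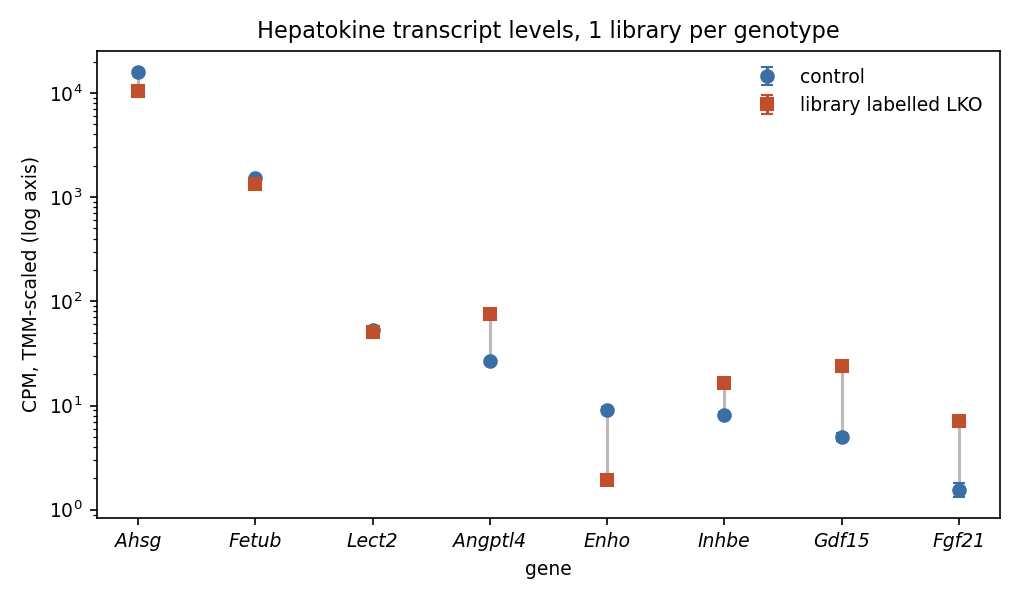
CPM of the 8 hepatokine genes (log axis) in the control library (circles) and the library labelled LKO (squares), with 95% exact Poisson intervals that are mostly smaller than the symbols. Ahsg lies at 15862 and 10536 CPM, while the 4 genes that were higher lie between 1.56 and 26.8 CPM in the control library.

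Fgf21 and Gdf15, the inducible stress hormones, gave the largest ratios of the 8. Gdf15 (ENSMUSG00000038508.7, chromosome 8 from 70629393 to 70632456, minus strand, mm10) encodes a member of the TGFβ superfamily that reduces food intake through a hindbrain receptor. It had 552 counts in control liver and 3691 in the library labelled LKO, or 4.98 and 24.2 CPM. The ratio was 4.86 (interval 4.44 to 5.33), and only 76 of the measured genes, Gdf15 included, had a ratio at least as high. Fgf21 (ENSMUSG00000030827.5, chromosome 7 from 45613886 to 45615490, minus strand) encodes an endocrine fibroblast growth factor. It had 173 and 1093 counts, or 1.56 and 7.17 CPM. Its ratio of 4.59 (interval 3.91 to 5.42) overlaps that of Gdf15, so the order of these 2 genes is not resolved by the counts. In the control library 91.4% of measured genes were more abundant than Fgf21.

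Angptl4 and Inhbe, which act on fat tissue and lipoprotein lipase, were higher by smaller factors. Angptl4 (ENSMUSG00000002289.16, chromosome 17 from 33773750 to 33781830, minus strand) had 2967 and 11575 counts. This is 26.8 and 75.9 CPM, a ratio of 2.84 (interval 2.72 to 2.95). Inhbe (ENSMUSG00000047492.5, chromosome 10 from 127348857 to 127354411, minus strand) encodes the βE subunit of activin, which is made mainly in the liver. It had 903 and 2487 counts, 8.15 and 16.3 CPM. Its ratio of 2.0 (interval 1.85 to 2.16) lies on the threshold, and it was 1.98 with upper-quartile scaling and 1.85 once a length and GC trend of the transcripts was removed. It was 2.18 with totals that leave out the 20 most abundant genes and 2.68 with total-count scaling. The 2-fold call of Inhbe was kept in 7 of 10 alternatives. Other filters and division by transcript number are among those that kept it, and they cannot change the ratio of Inhbe. Neither interval reached that of Gdf15 or Fgf21.

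Enho was the one hepatokine gene that was at least 2-fold lower. It lies on chromosome 4 from 41638144 to 41640324 on the minus strand (ENSMUSG00000028445.7). Its count was 1000 in control liver against 295 in the library labelled LKO, 9.02 and 1.93 CPM. This is 4.66-fold lower (interval 4.09 to 5.33), and 56 of the 11137 measured genes, Enho included, had a ratio at least as low. The log2 ratio was −2.22, and over the alternatives it ran from −2.31 to −1.80. Enho overlaps the end of Dnaic1, a gene for an axonemal dynein chain on the plus strand, by 15 bases. Dnaic1 had 323 and 23 counts and was measured only through the control library. As the use of strand in counting is not stated, reads at this overlap cannot be told apart. Cntfr, 17174 bases from Enho, had a log2 ratio of 0.56.

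Ahsg, Fetub and Lect2 were within 2-fold between the libraries, and Ahsg differed most. Ahsg, the fetuin-A gene (ENSMUSG00000022868.6, chromosome 16 from 22891277 to 22899449, plus strand), had 1758284 and 1606538 counts. At 15862 and 10536 CPM this is 1.51-fold lower (interval 1.502 to 1.509), with a log2 ratio of −0.59. Among measured genes, 9.60% had a lower ratio. With total-count scaling the log2 ratio of Ahsg was −0.17. Ahsg overlaps Gm30505, on the minus strand, by 3110 bases. Gm30505 had 13769 and 11865 counts and a log2 ratio of −0.67, and reads at this overlap cannot be told apart either. Fetub, the fetuin-B gene (ENSMUSG00000022871.13, chromosome 16 from 22918334 to 22939778, plus strand), lies 18885 bases from Ahsg. It had 170637 and 202689 counts, 1539 and 1329 CPM, and a log2 ratio of −0.21 that turned to 0.21 with total-count scaling. Lect2 (ENSMUSG00000021539.9, chromosome 13 from 56542464 to 56548502, minus strand) had 5920 and 7828 counts. These are 53.4 and 51.3 CPM, and its log2 ratio of −0.06 was 0.36 with total-count scaling and 0.32 once the length and GC trend was removed. Neither Fetub nor Lect2 thus has a direction that holds under every scaling.

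**Figure D2:**
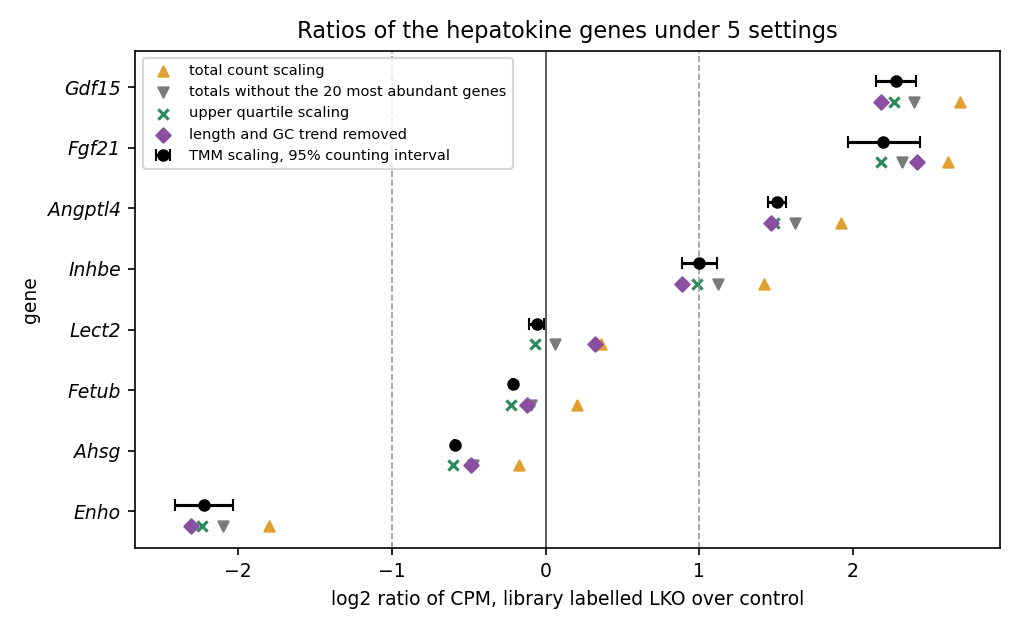
Log2 CPM ratio (library labelled LKO over control) for each hepatokine gene, with TMM scaling and its 95% counting interval (black) and under 4 alternative settings (coloured symbols, offset below); dashed lines mark 2-fold. Gdf15, Fgf21, Angptl4 and Enho stay beyond 2-fold under every setting drawn, Inhbe lies on the line with TMM scaling and between 0.89 and 1.42 under the others, and Lect2 and Fetub fall on both sides of 0.

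Per length of the longest GENCODE M21 transcript, the most abundant hepatokine gene, Ahsg, stood 6979 times above the least abundant, Inhbe, in control liver. In CPM per kilobase of the longest annotated transcript, Ahsg stood at 10689 in control liver and 7100 in the library labelled LKO. Fetub followed at 964 and 832, and Lect2 at 63.8 and 61.3. The other 5 genes stood below these in both libraries. Angptl4 stood at 8.09 and 22.9 CPM per kilobase, Gdf15 at 3.22 and 15.7, and Fgf21 at 1.64 and 7.54. Enho went from 7.11, the fifth place of the 8, to 1.52, the lowest place. Inhbe stood at 1.53 and 3.07, over a single annotated transcript of 5319 bases. RefSeq starts Inhbe further downstream, and a shorter transcript would raise its level per kilobase. The lowest place of Inhbe in control liver and the 6979-fold span thus rest on the GENCODE model. In the control library the intervals of Fgf21 (1.41 to 1.90) and Inhbe (1.43 to 1.63) overlapped, so this pair of neighbours is not ordered by the counts. In the library labelled LKO the intervals of no neighbouring pair overlapped.

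These levels depend on the transcript models. Over the mean in place of the longest transcript length, Angptl4 would stand at 17.0 CPM per kilobase in control liver and 48.3 in the library labelled LKO. The order of the 8 genes in control liver is the same with the mean length. The number of curated transcripts bears on 3 genes. RefSeq lists 4 curated transcripts for Ahsg, 3 for Fetub and 2 for Gdf15, and 1 each for the other 5. Both Fetub counts are whole multiples of 3, whereas the LKO counts of Ahsg and Gdf15 are not whole multiples of their transcript numbers. Whether reads were counted once per transcript is not stated. Divided by these numbers, the control levels per kilobase would be 2672 for Ahsg, 321 for Fetub and 1.61 for Gdf15, which would place Gdf15 below Fgf21. Ratios between the libraries are the same under this division.

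**Figure D3:**
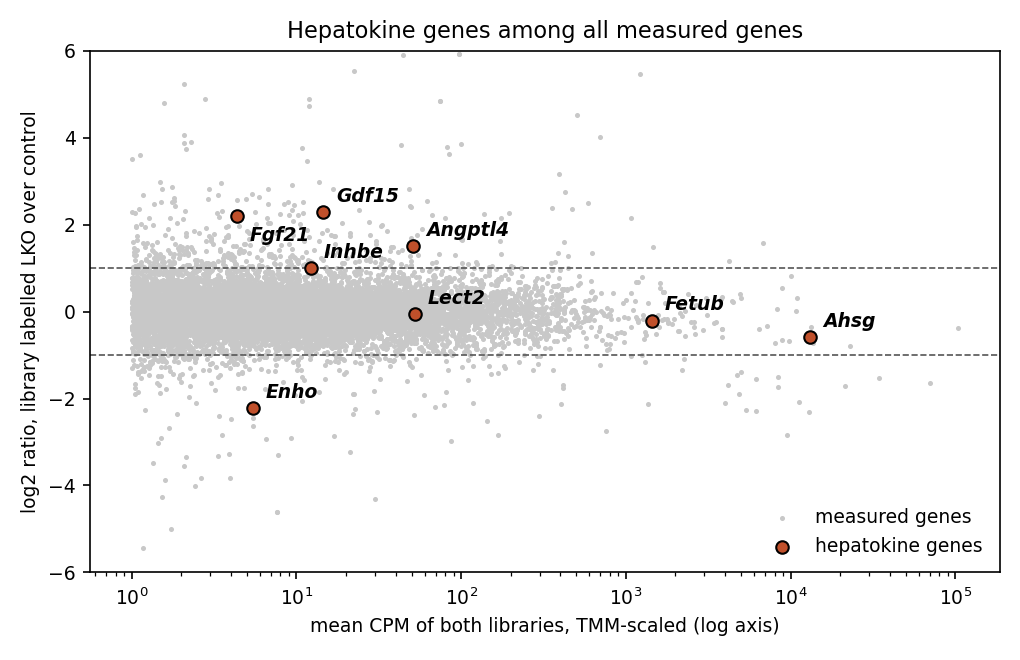
Log2 ratio (library labelled LKO over control) against mean CPM (log axis) for measured genes, with the 8 hepatokine genes marked; dashed lines mark 2-fold, and 18 measured genes lie beyond the plotted range of 6. Gdf15, Fgf21, Angptl4 and Inhbe lie on or above the upper line, Enho below the lower line, and Ahsg, Fetub and Lect2 between the lines.

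Promoter sequence was compared because Fgf21 and Inhbe were both higher and share a short site. RefSeq windows (GRCm38.p6, 250 bases before to 50 after the start) were matched for 6 of the 8 genes: Fgf21, Gdf15, Inhbe, Lect2, Ahsg and Fetub. The letters TGATGCAA, a composite site for C/EBP and ATF factors, were searched on both strands. They stood in 294 of 32851 windows of the same length (0.895%). Fgf21 has this site starting 139 bases before its start and Inhbe 181 bases before, and the other 4 genes have none in these windows. Of the measured genes on the lists described below, Chac1, Serpinf1 and Gm6484, which RefSeq now names Angptl8, hold it too. Each stretch of 30 bases is printed on the strand that reads the site, which is in capitals.
Fgf21 (chr7:45615611-45615640, plus strand): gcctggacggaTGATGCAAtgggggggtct
Inhbe (chr10:127352011-127352040, plus strand): gtggacatgcaTGATGCAAgaaagaggatg
Chac1 (chr2:119351038-119351067, minus strand): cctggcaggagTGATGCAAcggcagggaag
Gm6484 (chr9:21835369-21835398, plus strand): agccatcagtcTGATGCAAtggctgagcct
Serpinf1 (chr11:75422636-75422665, minus strand): acaccagacaaTGATGCAAtcacagattcc

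Genes with this site went different ways. Fgf21, Inhbe and Chac1 were higher, Chac1 with 164 and 697 counts and a ratio of 3.09. Gm6484 (Angptl8) and Serpinf1 had log2 ratios of −0.21 and 0.00. Of 68 measured genes with the site, 8 were 2-fold higher (11.8%) and 5 were 2-fold lower (7.35%), beside 3.64% and 2.26% of the 8658 measured genes with a window. The median log2 ratio of the 68 was −0.02. Fgf21 and Inhbe, which led to the choice of this site, are among the 8 higher genes. The share that was higher is thus partly set by that choice. The site is a match of letters, and binding was not measured. GENCODE M21 starts the Inhbe transcript further upstream than RefSeq, so there the site falls within an annotated 5′ UTR.

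The upstream 250 bases of Fgf21 (chr7:45615491-45615740, minus strand, the strand of the gene) are shown whole because they hold 2 of the searched motifs. The capitals mark the composite site, read here as TTGCATCA, and the E-box CACGTG starting 50 bases before the start. The E-box, a site of clock and carbohydrate response factors, stood in 7.15% of all windows. Gdf15 holds it too, 83 bases before the downstream one of its 2 annotated starts. Of 1054 measured genes with an E-box, 4.65% were 2-fold higher and 1.42% were 2-fold lower. Among all 8658 measured genes with a window these shares were 3.64% and 2.26%.
Fgf21 upstream: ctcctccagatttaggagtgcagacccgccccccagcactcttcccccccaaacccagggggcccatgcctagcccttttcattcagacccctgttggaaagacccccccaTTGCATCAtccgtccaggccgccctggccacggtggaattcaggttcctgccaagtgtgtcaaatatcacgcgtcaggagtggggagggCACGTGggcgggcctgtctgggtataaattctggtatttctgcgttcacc

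The half-site AGGTCA, which RORα and other nuclear receptors bind, stood in 16.3% of all windows. Of the 6 hepatokine genes with a window only Gdf15 holds it, starting 55 bases before the upstream one of its 2 annotated starts. It is shown because the study is about RORα.
Gdf15 (chr8:70632494-70632523, minus strand): gagtgaccccacAGGTCAgaggccacccag
Of 1379 measured genes with this half-site, 3.99% were 2-fold higher and 2.54% were 2-fold lower, shares near those of all genes with a window.

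Receptors and co-receptors for the 8 hormones were read from the same libraries, with 17 genes on the list and 12 of them measured. Here and for the lists that follow, a gene is counted at 1.5-fold with an interval that excludes 1, which 10.5% of measured genes met as higher and 9.76% as lower. Of the 12, 1 was higher and 1 lower. Insr, the insulin receptor, which fetuin-A inhibits, had 32.4 and 53.4 CPM, 1.65-fold higher. Fgfr1, a receptor of FGF21, had 11.5 and 6.66 CPM, 1.73-fold lower. Its co-receptor Klb had a log2 ratio of 0.23, and Fgfr4, the main fibroblast growth factor receptor of hepatocytes, −0.53. Gfral and Ret, which form the GDF15 receptor, had 0 counts in both libraries, which allows up to 0.0271 CPM in control liver and 0.0197 in the second library. Gpr19, proposed as an adropin receptor, and Met, proposed as a LECT2 receptor, had log2 ratios of 0.04 and 0.00. The list median was 0.02, and with total-count scaling 0.44.

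The measured activin subunit and binding protein genes went both ways. Inhbc, which encodes the liver βC subunit, lies 1911 bases from Inhbe on chromosome 10. Inhbc had 5900 and 4366 counts, 53.2 and 28.6 CPM, or 1.86-fold lower (interval 1.79 to 1.93), while Inhbe was higher. The count of Inhbe was 0.153 times that of Inhbc in control liver and 0.570 times in the library labelled LKO, a comparison that no scaling changes. Fst, the gene of the activin-binding protein follistatin, itself secreted by liver, had 1824 and 333 counts. At 16.5 and 2.18 CPM it was 7.53-fold lower (interval 6.70 to 8.49). Fstl1 was 1.77-fold higher. Of 7 genes on this list 3 were measured, with 1 higher and 2 lower, and the others, among them Inhba and Inhbb, lay below 1 CPM.

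Among relatives and partners of ANGPTL4, 11 of 13 genes were measured, 1 higher and 1 lower. Gm6484 (Angptl8), a feeding-induced regulator of lipoprotein lipase, had 20.2 and 17.4 CPM and a log2 ratio of −0.21. The added 0.42 of total-count scaling makes this ratio positive. Lpl, the enzyme that ANGPTL4 inhibits, had a log2 ratio of −0.17. Gpihbp1, which carries the lipase to the capillary wall, was 1.54-fold lower, at 11.1 and 7.22 CPM. The proprotein convertase gene Pcsk6 was 1.97-fold higher, at 89.5 and 176 CPM, and Furin, of the same family, had a log2 ratio of 0.51. The list median was −0.10.

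The relatives of the fetuins, the type 3 cystatins, lie in the same class of abundant secretory genes. Hrg, a neighbour of Fetub at 11294 bases, had 614 and 541 CPM and a log2 ratio of −0.18, close to that of Fetub. Kng1 had 3094 and 2172 CPM and −0.51. Kng2 was 3.20-fold lower, at 636 and 199 CPM. The kininogen genes are close copies, so the split of reads between Kng1 and Kng2 is uncertain. Of 8 listed genes of other fibroblast growth factors and klotho 1 was measured, Fgf1, with a log2 ratio of 0.19, and the endocrine factor gene Fgf15 had 0 counts in both libraries.

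Genes of the PPARα and fasting response, to which Fgf21 and Angptl4 belong as textbook targets, were mostly higher. All 16 genes were measured, 10 passed 1.5-fold as higher and 0 as lower, and the list median of the log2 ratio was 0.92. Cyp4a10 and Cyp4a14, omega-hydroxylase genes, were 5.69-fold and 5.25-fold higher, although these copies can share reads. Vnn1, a pantetheinase gene induced by PPARα, had 15.2 and 82.1 CPM, 5.39-fold higher. Creb3l3, a liver factor that acts on Fgf21, and Ppargc1a had log2 ratios of 0.03 and 0.17. The lowest was Fabp1 at −0.43.

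The integrated stress response, of which Gdf15, Fgf21, Inhbe and Chac1 are known targets, did not move one way. Of 20 genes 11 were measured, 3 higher and 4 lower, and their log2 ratios had a median of 0.02, or −0.12 once the length and GC trend was removed. Chac1, a glutathione-degrading enzyme gene, had 1.48 and 4.57 CPM. Sesn2 and Cebpb were 1.91-fold and 1.84-fold higher. In the other direction, Asns, the asparagine synthetase gene, had 330 and 31 counts, 14.6-fold lower (interval 10.1 to 21.9), and was measured only through the control library. Ddit4 was 3.25-fold lower, Ddit3, which encodes CHOP, 1.68-fold lower and Xbp1 1.51-fold lower. The transcripts of Atf4 and Atf5 had log2 ratios of −0.31 and 0.03. Atf4 is controlled largely at translation, which RNA counts do not show.

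Carbohydrate response and LXR genes gave 2 of 10 higher and 0 lower, and their log2 ratios had a median of 0.11. Txnip, a glucose-responsive gene, had 67.3 and 322 CPM, 4.79-fold higher, and the pyruvate kinase gene Pklr was 1.95-fold higher. Mlxipl, which encodes ChREBP, had a log2 ratio of 0.24, Thrsp 0.03 and Nr1h3, which encodes LXRα, −0.36. Among ROR and REV-ERB genes, 1 of 5 measured was higher and 1 lower. Nr1d1 was 1.57-fold higher and Arntl 1.95-fold lower.

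**Figure D4:**
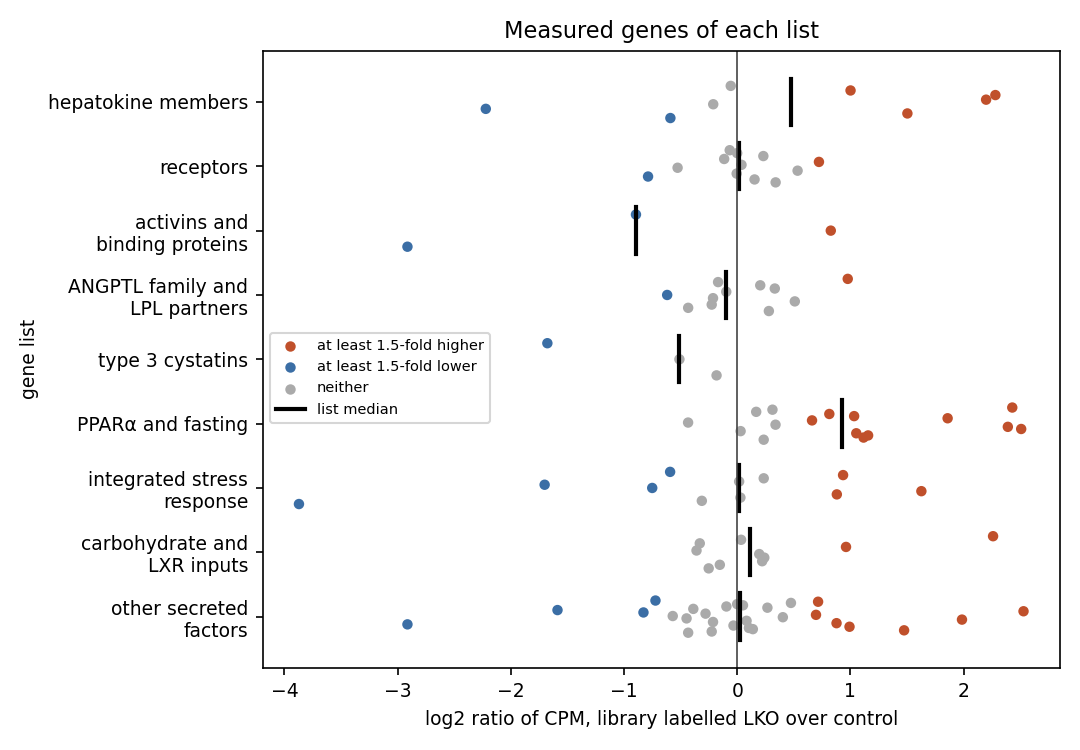
Log2 ratio (library labelled LKO over control) of the measured genes of each list, 1 point per gene, coloured by the 1.5-fold call, with the list median as a black bar. The PPARα and fasting list has its median at 0.92 and no gene called lower, while the integrated stress response list runs from −3.87 (Asns) to 1.63 (Chac1).

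Other liver-secreted metabolic factors, 30 names of which 28 were measured, went both ways. At 1.5-fold 7 were higher and 4 lower, around a median of 0.03 on the log2 scale. The highest were Lcn2, a siderophore-binding protein gene, at 2.62 and 15.1 CPM (5.78-fold), Gpnmb at 0.541 and 2.14 CPM (3.96-fold) and Apoa4 at 769 and 2137 CPM (2.78-fold). Gpnmb was measured only through the library labelled LKO. The lowest were Fst, described above, Manf, an endoplasmic reticulum stress factor gene, at 70.4 and 23.4 CPM (3.01-fold lower), and Itih3, 1.78-fold lower. The most abundant in both libraries, Sepp1, which encodes selenoprotein P, had 8180 and 8475 CPM and a log2 ratio of 0.05. Igf1, the growth hormone-dependent liver hormone, had 2745 and 1850 CPM with a log2 ratio of −0.57, close to that of Ahsg.

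Some marker genes of other liver cells moved with these differences. Of 6 Kupffer cell markers 5 were measured and all 5 passed 1.5-fold as lower, and the summed level of the 6 went from 73.8 to 39.5 CPM. Of 8 stellate cell markers 4 were higher and 0 lower, with a sum of 197 and 274 CPM. Endothelial markers summed to 141 and 154 CPM, with 0 of 6 called, and the 6 cholangiocyte markers to 56.5 and 44.4 CPM, with 0 of 2 measured called. The part of these cell types in the hepatokine ratios was not tested. For Angptl4, which adipose tissue also makes, the adipocyte markers Lep, Plin1 and Retn had 0 counts in both libraries and Adipoq 0 and 4. The fifth and only measured one, Cfd, had 12.0 and 21.5 CPM, 1.80-fold higher. Recruited macrophage markers summed to 72.2 and 60.0 CPM, with 1 of 4 measured higher, Gpnmb, which was measured only through the library labelled LKO. Spp1 stands in the cholangiocyte and the macrophage list and gives 51.6 and 40.2 CPM of both sums. Of the 7 hepatocyte markers 2 were lower, Serpina1a and Cps1, and 0 higher. Their median log2 ratio was −0.33 and their sum went from 161612 to 119742 CPM, beside the lower Ahsg. Red blood cell markers summed to 696 and 684 CPM, with Alas2 lower. All marker calls are with TMM scaling, and total-count scaling was not run on them. Its added 0.42 would leave Timd4 alone of the Kupffer cell markers lower at 1.5-fold. Serpina1a, Cps1 and Alas2 would not pass as lower, and more stellate cell and endothelial markers would pass as higher.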

How the data were processed

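Each library has 1 deposited table of raw read counts, whole numbers by gene symbol, which the authors had not normalized. The tools TopHat and edgeR and the build mm10 are named in the submitters' processing notes. Versions, the counter, the annotation and the use of strand were not stated in the labels or files. RNA was extracted with Trizol and made into libraries with a LEXOGEN mRNA kit, per the labels' protocols. Whether a library pooled animals is not given.

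TMM factors (edgeR 4.0.16, R 4.3.3) were 0.865 and 1.16. Ratios had 95% Clopper-Pearson intervals conditional on the summed count, computed with scipy 1.17.1. Reads copied by PCR are not separate molecules, so intervals and floors (3 counts) cover counting error only. No p-value was computed, as there is 1 library per genotype. The code for the ratio and call was tested on simulated Poisson counts. Those hold counting error alone, so they cannot show how the calls would fare across animals. Positions and lengths are from GENCODE M21 (GRCm38, the assembly of mm10), matched for 24042 of 24421 symbols. Length and GC trends were removed with lowess (statsmodels 0.14.6, fraction 0.3), with values for 99.3% of measured genes. Alternatives were other scalings (DESeq2 1.42.0 among them), added counts of 0.5 and 5, other filters and thresholds, and counts divided by transcript number.

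The 8 genes and all lists were chosen with earlier results of these data known, and the motifs after the promoter sequences were seen. The named genes are the 8, Rora, and from each list up to 3 genes with the highest ratio, 3 with the lowest and 2 with the most counts. List genes quoted as under the filter (Gfral, Ret, Fgf15, Inhba and Inhbb) may also be named. Klb, Gpr19, Met, Lpl, Atf4, Atf5, Gm6484, Serpinf1, Dnaic1, Cntfr and the markers were added after their values were seen. With 2 libraries a pattern is a single ratio, so no most similar genes are named. Some genes named by this rule are not reported here.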

Additional observations from a re-analysis of the deposited data

How the results depend on the processing

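No hepatokine gene with a 2-fold call changed sign under any alternative. A scaling shift of at most 0.42 in log2 cannot reverse a 2-fold ratio, so the kept sign says little. For the list genes only the list counts and medians were tried. Gdf15, Fgf21 and Enho passed the call in every setting that measured them, and Angptl4 in all but the 3-fold threshold. The number of hepatokine genes called higher was 3 in place of 4 with upper-quartile scaling, with 5 counts added and after removal of the length and GC trend, in each case through Inhbe. A mean CPM of at least 10 left Fgf21 and Enho unmeasured, which gave 3 higher and 0 lower. At 3-fold there were 2 higher and 1 lower, and at 1.5-fold 4 higher and 2 lower, Ahsg being the second. Over the other lists together, 26 genes were higher and 13 lower at 1.5-fold, a rule that 10.5% and 9.76% of all measured genes met. These counts were 46 and 5 with total-count scaling, 17 and 7 at a mean CPM of at least 10, and 8 and 5 at 3-fold. Total-count scaling raises every gene alike, so its counts include that shift. Shares over all measured genes were computed only for the main setting at 2-fold and 1.5-fold, so the other counts have none beside them. The highest level per length among the 8 genes was 6979 times the lowest in the control library, 9200 times with the mean transcript length and 1745 times with counts divided by transcript number. In each of these the lowest is Inhbe over its GENCODE length, and its RefSeq start was not tried. Depth limits Fgf21 most, with 173 counts in the control library. No paired analysis was possible because each genotype has 1 library.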
